A study of Homo sapiens with 6 samples.

Results

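The 10 genes described here encode factors placing RNA polymerase III, or RNA polymerase II at small nuclear RNA (snRNA) genes, on their promoters. They were SNAPC1, SNAPC2, SNAPC3, SNAPC4 and SNAPC5, the subunits of the snRNA-activating protein complex (SNAPc), BRF1, BRF2 and BDP1 of the initiation factor TFIIIB, GTF3A, which encodes TFIIIA, and MAF1, a repressor of Pol III. The genes were chosen by name, with earlier results of these data known, and each was taken as the sum over all its transcripts in the table. They were 10 of the 63190 gene identifiers measured, and their 70 transcripts were among 207167. RNA-seq of 3 libraries of cells expressing the D391N mutant of the exoribonuclease DIS3L2, which is catalytically inactive, was compared with 3 libraries of control cells. Both were HEK293T-Rex cells, a human embryonic kidney line in which an integrated construct is switched on by doxycycline (HEK293 in the labels). Since each group was 1 line, what the construct did and what differed between the lines cannot be told apart. The labels do not say whether the libraries of a group came from separate cultures, and the p-values then measure only the spread between these libraries. The study's methods do not say whether the controls received doxycycline, and they do not name the libraries that shared a sequencing lane.

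SNAPc binds the proximal sequence element upstream of snRNA genes. At most of these genes it brings in Pol II, whereas at the genes for U6 snRNA, 7SK RNA and the RNA components of RNase P and RNase MRP it works with BRF2, BDP1 and the TATA-binding protein to bring in Pol III. BRF1 takes the place of BRF2 at tRNA genes and at the genes for the small ribosomal RNA that Pol III makes, and at the latter TFIIIA binds first, inside the transcribed sequence. MAF1 is dephosphorylated in starved or stressed cells and then binds Pol III and keeps it from BRF1. DIS3L2 degrades RNAs that carry added uridines, among them products of Pol III and snRNA genes, and the comparison here asked how the levels of the factors' own mRNAs stood when the inactive enzyme was present.

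The sequences below were chosen because a large part of the differences in the SNAPC3, BRF1 and GTF3A sums lay in short transcripts that share most of their bases with longer ones of the same gene. They are written 5′ to 3′ from GENCODE v44 transcripts lifted to GRCh37, the reference at hand, while the deposited values refer to Ensembl transcripts of GRCh38. The capitals in SNAPC3-204 (ENST00000461041, bases 207 to 306 of 403) and BRF1-213 (ENST00000549044, bases 447 to 521 of 521) mark bases that lie in no other transcript, judged by windows of 50 bases, the length of the reads. In GTF3A-205 (ENST00000466776, bases 40 to 133 of 461) the capitals mark the exon junction that lies in every window found in that transcript alone. Reads over such parts can be given to these isoforms. The bases of SNAPC3-204 after base 306 are also its own and are not shown.
SNAPC3-204: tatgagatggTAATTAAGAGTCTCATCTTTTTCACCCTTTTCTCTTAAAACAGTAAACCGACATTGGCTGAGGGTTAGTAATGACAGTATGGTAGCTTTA
BRF1-213: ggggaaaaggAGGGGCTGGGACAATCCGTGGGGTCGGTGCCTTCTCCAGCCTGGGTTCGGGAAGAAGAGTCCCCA
GTF3A-205: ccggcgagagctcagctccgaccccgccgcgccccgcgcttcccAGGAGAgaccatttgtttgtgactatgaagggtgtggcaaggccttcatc

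Of the windows of 50 bases in SNAPC3-204, 52.8% were in that transcript alone, against 13.8% in BRF1-213 and 10.9% in GTF3A-205. The division of reads between BRF1-213 or GTF3A-205 and the other transcripts of those genes therefore rested on a small part of each sequence. SNAPC1 had a single transcript, SNAPC1-201 (ENST00000216294), and 79.6% of its windows occurred nowhere else. Reads were divided among transcripts by the authors' program BitSeq, and levels are given as RPKM, reads scaled to transcript length and library size. The number of reads behind a value was estimated as 1 divided by its deposited posterior variance, so that it also falls where the division of reads was uncertain.

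DIS3L2 checked the labels. It was at 370, 466 and 512 RPKM in the D391N libraries and at 11.8, 12.9 and 14.6 RPKM in the controls, a log2 fold change of 5.08 (SE 0.18, limma adjusted p = 0.00027), with reads of the construct counted, and of 3.19 in the sum over protein-coding transcripts alone. The libraries held an estimated 19.7 to 32.9 M reads (M, 1e6). Of the markers of the cell line, VIM, KRT18 and INA were present at 11.8 to 177 RPKM, PAX2 and LHX1 at 1.3 to 2.63 RPKM, and NEFM was under 1 RPKM in every library. VIM (110 to 143 against 152 to 177 RPKM, limma adjusted p = 0.21) and KRT18 (26.5 to 37.2 against 38.2 to 40.7 RPKM, adjusted p = 0.374) were lower in the D391N libraries without overlap, and the part of this in the values below was not tested. Of the markers of other cell types PTPRC, HBB and COL1A1 lay between 1.34 and 7.12 RPKM, ALB and TYR averaged under 1 RPKM, and PECAM1 had no matching identifier. Across the 20714 genes with a mean of at least 1 RPKM, compared by limma on log2(RPKM + 0.1), the median log2 fold change was -0.090 and the quartiles were -0.46 and 0.23. On that scale the fold changes of low genes are understated.

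All 10 genes passed the filter on low values, and none passed the threshold of a Benjamini-Hochberg adjusted p under 0.05 in limma, which 29 of the 20714 genes (0.14%) passed. At an unadjusted p under 0.05, SNAPC1, SNAPC3 and BRF1 were lower in D391N-expressing cells, 3 of 10 genes beside 16% of all genes. In SNAPC1, SNAPC2, SNAPC3 and BRF1 each D391N library lay below each control, 4 of 10 genes beside 20.7% of all genes. No member lay above every control in all D391N libraries, a pattern that 10.5% of all genes had. Of the log2 fold changes, 7 were below 0, beside 57.3% of all genes, and 3 above, with a median of -0.16. The median of the members was 0.063 when the libraries were centred on their medians and 0.0051 after quantile normalization, which themselves moved the median of all genes from -0.090 to 0.13 and 0.076, and the log2 fold changes of SNAPC1, SNAPC2, SNAPC3 and BRF1 stayed below 0 under both.

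**Figure D1:**
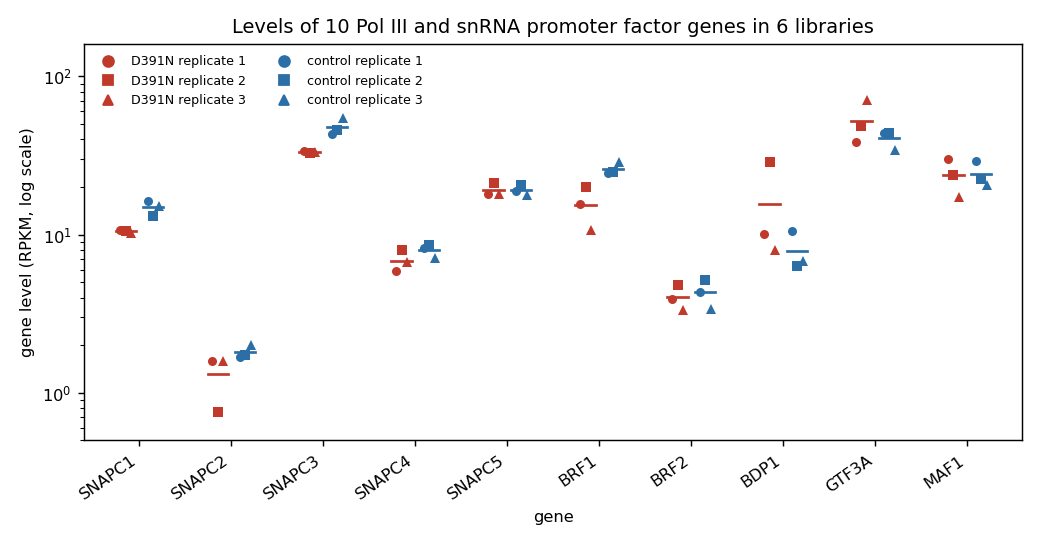
Level of each of the 10 genes in RPKM (log axis) in the 6 libraries, with D391N libraries in red and controls in blue, the replicate numbers as symbols and the group means as bars. The D391N libraries lie below the controls without overlap in SNAPC1, SNAPC2, SNAPC3 and BRF1, and D391N replicate 2 stands apart in BDP1 at 28.6 RPKM and in SNAPC2 at 0.756 RPKM.

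SNAPC4 and SNAPC3 encode the SNAPc subunits that contact the promoter DNA. SNAPC4 (ENSG00000165684, chromosome 9 of GRCh38.p14, 136375571 to 136400170) was at 5.91, 7.93 and 6.68 RPKM in the D391N libraries (replicates 1, 2 and 3 here and below), and the controls were at 8.17, 8.53 and 7.10 RPKM. The groups overlapped, with means of 6.84 ± 1.02 and 7.93 ± 0.743 RPKM (SD, n = 3 each). In limma the log2 fold change was -0.22 (SE 0.18, adjusted p = 0.495), and it became 0.0019 when the libraries were centred on their medians. SNAPC4 was counted in 1 transcript, SNAPC4-201 (ENST00000298532), on an estimated 700 to 1384 reads per library.

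SNAPC3 (ENSG00000164975, chromosome 9, 15422876 to 15466735) had the highest level among the SNAPc genes. It was at 33.8, 32.9 and 33.4 RPKM in the D391N libraries and at 43.1, 46.0 and 54.5 RPKM in the controls, with means of 33.4 ± 0.475 and 47.9 ± 5.91 RPKM (SD, n = 3 each). The D391N libraries were close to each other and all lay below the lowest control. This gave a log2 fold change of -0.51 (SE 0.14, unadjusted p = 0.0093, adjusted p = 0.126 in limma). In the sum over protein-coding transcripts alone it was -0.091 with an adjusted p of 0.784, the highest of 18 settings (from 0.0849).

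The difference in SNAPC3 lay in one isoform. SNAPC3-204, a short transcript of 403 bases without a defined coding sequence, was at 2.04, 0.202 and 0.626 RPKM in the D391N libraries and at 5.55, 16.6 and 20.9 RPKM in the controls. It made up 0.615% to 6.04% of SNAPC3 in the D391N libraries, against 12.9% to 38.3% in the controls, so that each D391N library was again below each control. Behind these levels stood an estimated 5.2, 0.6 and 1.7 reads in the D391N libraries, compared with 10, 70.8 and 53.1 in the controls. Its log2 fold change was -4.01 (SE 0.80, adjusted p = 0.118 in limma over all transcripts). Without D391N replicate 1 it was -4.75 with an adjusted p of 0.018, the lowest of 15 settings (up to 0.398), in a fit in which 4984 transcripts passed the threshold in place of 33. SNAPC3 without this isoform was at 31.8, 32.7 and 32.8 RPKM in the D391N libraries and at 37.6, 29.4 and 33.6 RPKM in the controls. The groups then overlapped, and their means of 32.4 ± 0.544 and 33.5 ± 4.07 RPKM differed by less than the spread of the controls (exact permutation p = 0.70, two-sided). The isoform was left out after its values had been seen. The most abundant isoform, the protein-coding SNAPC3-203 (ENST00000421710), was at 12.4, 18.9 and 14.5 RPKM and at 19.9, 10.5 and 16.5 RPKM, a log2 fold change of -0.0030 (adjusted p = 0.997). Each of the other 4 tested isoforms overlapped between the groups, with log2 fold changes from -0.46 to 0.12.

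SNAPC1 (ENSG00000023608, chromosome 14, 61762420 to 61796428) encodes the subunit that joins SNAPC3 and SNAPC4 in the core of the complex. It was at 10.7, 10.6 and 10.2 RPKM in the D391N libraries and at 16.2, 13.2 and 15.2 RPKM in the controls, on an estimated 442 to 1057 reads per library. The means of 10.5 ± 0.244 and 14.9 ± 1.57 RPKM (SD, n = 3 each) came from libraries without overlap, and the log2 fold change was -0.49 (SE 0.14, unadjusted p = 0.0118, adjusted p = 0.135 in limma). Because SNAPC1 is measured as 1 transcript, no division between isoforms enters this value. It lay between -0.58 and -0.27 over 18 alternative settings, and the adjusted p was between 0.0898 and 0.370.

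SNAPC2 and SNAPC5 encode smaller subunits. SNAPC2 (ENSG00000104976, chromosome 19, 7920338 to 7923250) was the lowest of the 10 genes, at 1.59, 0.756 and 1.60 RPKM in the D391N libraries and at 1.69, 1.73 and 2.01 RPKM in the controls. The groups did not overlap, but D391N replicates 1 and 3 lay just below the lowest control. In limma the log2 fold change was -0.50 (SE 0.34, adjusted p = 0.417) and -0.17 without D391N replicate 2. None of its 6 transcripts reached a mean of 1 RPKM, and the gene rested on an estimated 6.7 to 16.1 reads per library.

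SNAPC5 (ENSG00000174446, chromosome 15, 66489748 to 66497762) was the SNAPc gene with the smallest difference. It was at 18.1, 21.2 and 18.1 RPKM in the D391N libraries and at 18.7, 20.6 and 17.7 RPKM in the controls, with means of 19.2 ± 1.77 and 19.0 ± 1.44 RPKM (SD, n = 3 each). A log2 fold change of 0.010 was found (SE 0.14, limma adjusted p = 0.975), on an estimated 82.3 to 160 reads. It was -0.064 without D391N replicate 2 and -0.039 without control replicate 3. Its most abundant isoform, SNAPC5-204 (ENST00000562411), which is annotated as a target of nonsense-mediated decay, had a log2 fold change of -0.27 (adjusted p = 0.651). The protein-coding SNAPC5-202 (ENST00000316634) was at 3.81, 4.17 and 4.66 RPKM against 3.56, 2.72 and 2.85 RPKM, and was the tested member transcript that lay above the controls in every D391N library, with a log2 fold change of 0.46 (adjusted p = 0.372). No window of SNAPC5-202 was found in that transcript alone.

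**Figure D2:**
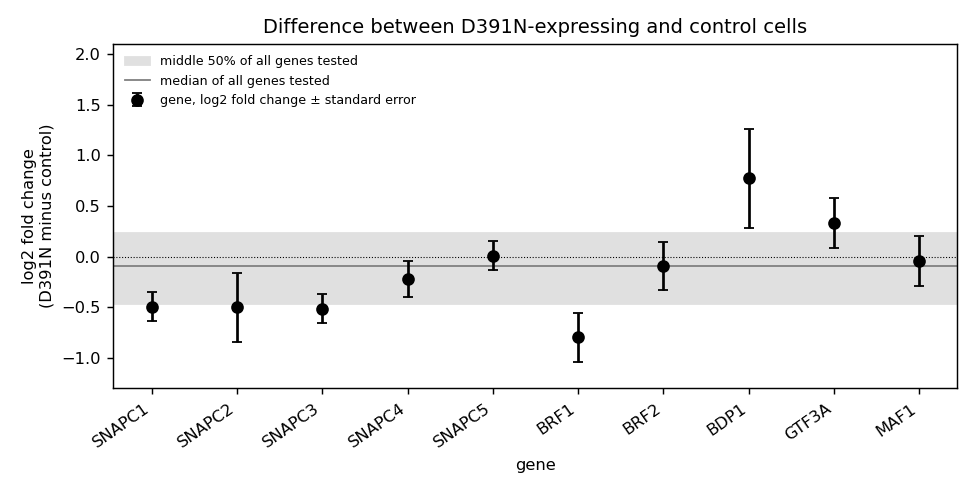
Log2 fold change of each gene, D391N minus control, from limma on log2(RPKM + 0.1), with bars of 1 standard error on either side, n = 3 libraries per group. The grey band spans the quartiles of all 20714 genes (-0.46 to 0.23), and SNAPC1, SNAPC2, SNAPC3, BRF1, BDP1 and GTF3A have their points outside it.

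BRF1 (ENSG00000185024, chromosome 14, 105209286 to 105315589), the TFIIIB subunit used at tRNA genes, had the largest log2 fold change in size of the 10 genes, with BDP1 close to it and above it after median centring (0.99 against -0.58) or quantile normalization (0.96 against -0.70). It was at 15.6, 19.9 and 10.7 RPKM in the D391N libraries, against 24.6, 24.9 and 28.6 RPKM in the controls. The controls lay close together, the D391N libraries spread more widely, and the highest of them was below the lowest control. The means were 15.4 ± 4.58 and 26.1 ± 2.21 RPKM (SD, n = 3 each), a log2 fold change of -0.80 (SE 0.24, unadjusted p = 0.0129, adjusted p = 0.139 in limma). With D391N replicate 3 left out it was -0.56, and with D391N replicate 2 left out -1.001. Summed over its protein-coding transcripts alone BRF1 had a log2 fold change of -0.68 with an adjusted p of 0.048, the lowest of 18 settings (up to 0.355), in a fit in which 593 of 11351 genes (5.22%) passed the threshold. That sum leaves out ENST00000546474, which has no annotated biotype here and holds most of the BRF1 reads as estimated from the posterior variance. In no other setting did a member gene pass.

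Most of the difference in BRF1 was in short isoforms. BRF1-213, of 521 bases and without a defined coding sequence, was at 6.54, 4.97 and 2.69 RPKM in the D391N libraries and at 10.3, 9.29 and 11.6 RPKM in the controls, on an estimated 12.8 to 98.9 reads. Its log2 fold change was -1.20 (SE 0.36, adjusted p = 0.194 in limma). BRF1-206 (ENST00000546417), of 554 bases and annotated as protein-coding, was at 1.16, 0.578 and 1.13 RPKM against 3.15, 3.28 and 4.198 RPKM, a log2 fold change of -1.83 (SE 0.36, adjusted p = 0.114). In both isoforms each D391N library was below each control. BRF1-208 (ENST00000547052), a retained intron transcript, was at 0.538, 4.56 and 0.474 RPKM against 2.60, 2.96 and 3.995 RPKM, with D391N replicate 2 above every control. Its log2 fold change was -1.44 (adjusted p = 0.388) and -2.42 without that library. Without BRF1-213 and BRF1-206, a choice made after their values were seen, BRF1 was at 7.91, 14.3 and 6.88 RPKM in the D391N libraries and at 11.2, 12.4 and 12.8 RPKM in the controls. The means of 9.70 ± 4.03 and 12.1 ± 0.837 RPKM (SD, n = 3 each) then differed by less than the spread of the D391N libraries (exact permutation p = 0.40, two-sided).

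By estimated reads, and not by level per length, another BRF1 transcript was the main one. ENST00000546474, which is absent from the reference used for lengths, was at 2.20, 3.06 and 1.14 RPKM in the D391N libraries and at 1.54, 1.73 and 1.76 RPKM in the controls, and the log2 fold change was 0.23 (adjusted p = 0.797 in limma). It held 82.5%, 82.4% and 74.7% of the estimated BRF1 reads in the D391N libraries, against 65.1%, 67.0% and 68.7% in the controls. The D391N libraries were all above the controls in this share (exact permutation p = 0.10, two-sided, the smallest that 3 libraries against 3 allow). The other BRF1 transcripts together had an estimated 172, 194 and 144 reads in the D391N libraries, against 345, 403 and 251 in the controls, again without overlap (exact permutation p = 0.10). In the level of ENST00000546474, by contrast, the groups overlapped. Depth differed as well: relative to control replicate 2, the D391N libraries were at 0.730, 0.627 and 0.812 and the other controls at 0.947 and 0.676.

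BRF2 (ENSG00000104221, chromosome 8, 37843268 to 37849861), which serves the promoters that SNAPc opens to Pol III, was at 3.91, 4.83 and 3.32 RPKM in the D391N libraries and at 4.35, 5.19 and 3.39 RPKM in the controls. The groups overlapped, and the means of 4.02 ± 0.759 and 4.31 ± 0.902 RPKM (SD, n = 3 each) differed by less than their spread. The log2 fold change was -0.094 (SE 0.24, limma adjusted p = 0.843) and took the other sign under 4 of 17 settings. Its main isoform, the protein-coding BRF2-201 (ENST00000220659), had a log2 fold change of -0.21 (adjusted p = 0.752).

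The ratio of BRF1 to BRF2, which compares the TFIIIB subunits used at the different promoter types within each library, was 3.996, 4.11 and 3.22 in the D391N libraries, against 5.66, 4.80 and 8.44 in the controls. The D391N libraries all had the lower ratio. The mean ratios were 3.78 ± 0.484 and 6.30 ± 1.90 (SD, n = 3 each; exact permutation p = 0.10, two-sided). The ratio was computed after both genes had been seen, and it holds the short BRF1 isoforms above.

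BDP1 (ENSG00000145734, chromosome 5, 71455651 to 71578288), the subunit common to both forms of TFIIIB, had 1 library that stood apart. It was at 10.03, 28.6 and 7.99 RPKM in the D391N libraries, against 10.6, 6.29 and 6.78 RPKM in the controls, with means of 15.5 ± 11.3 and 7.89 ± 2.36 RPKM (SD, n = 3 each). Apart from D391N replicate 2 the libraries of the groups overlapped. Its log2 fold change was 0.77 (SE 0.49, limma adjusted p = 0.377) and 0.22 without D391N replicate 2. In that library the retained intron transcript BDP1-202 (ENST00000508157) was at 23.3 RPKM, against 2.28 and 1.26 RPKM in the other D391N libraries and 1.85, 2.50 and 1.65 RPKM in the controls. Its log2 fold change was 1.03 (adjusted p = 0.612) and -0.20 without D391N replicate 2. The protein-coding BDP1-201 (ENST00000358731) was at 6.58, 3.76 and 5.02 RPKM in the D391N libraries and at 7.52, 2.99 and 4.10 RPKM in the controls, and the log2 fold change was 0.14 (adjusted p = 0.879).

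The reads that the variance of BDP1 gives were few for its level. The level of BDP1-201 corresponds to 820 to 2594 reads per library, but its posterior variance to 0.7 to 3.5, which is 0.0646% to 0.171% of them. In the most abundant transcript of each of the other genes the share was between 13.2% and 115%. In the reference used here 99.8% of the windows of BDP1-201 were found in BDP1 alone, but 0.755% in BDP1-201 alone. The parts of other BDP1 transcripts and of other sequences in this uncertainty were not tested. The level of BDP1-202 corresponds to 113 to 1565 reads per library. Its posterior variance corresponds to 2.6 reads in D391N replicate 2 and 0.7 to 1.1 in the other libraries. Its high value in D391N replicate 2 is therefore as uncertain as a value on under 3 reads.

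GTF3A (ENSG00000122034, chromosome 13, 27424619 to 27435823), the gene for TFIIIA, spread most among the D391N libraries in RPKM. It was at 38.3, 48.6 and 70.6 RPKM in the D391N libraries and at 43.8, 43.6 and 34.4 RPKM in the controls. D391N replicate 3 was the highest of all libraries and D391N replicate 1 lay among the controls. The means were 52.5 ± 16.5 and 40.6 ± 5.38 RPKM (SD, n = 3 each), and the log2 fold change was 0.33 (SE 0.25, limma adjusted p = 0.452). It was 0.098 without D391N replicate 3 and -0.36 in the sum over protein-coding transcripts alone.

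The isoforms of GTF3A stood in both directions. The protein-coding GTF3A-201 (ENST00000381140), the most abundant, was at 22.4, 12.8 and 25.6 RPKM in the D391N libraries and at 30.1, 27.1 and 19.0 RPKM in the controls, with overlap and a log2 fold change of -0.36 (adjusted p = 0.613 in limma). GTF3A-208 (ENST00000493903), which starts within the gene and has no defined coding sequence, was at 4.94, 21.9 and 21.4 RPKM against 1.23, 6.53 and 4.95 RPKM. D391N replicates 2 and 3 were above all controls and D391N replicate 1 was among them. The log2 fold change was 1.92 (SE 0.80, adjusted p = 0.282). GTF3A-205, also without a defined coding sequence, was at 0.304, 6.50 and 13.6 RPKM against 0.722, 0.661 and 0.924 RPKM. Its log2 fold change was 1.94 (adjusted p = 0.433), 3.46 without D391N replicate 1 (adjusted p = 0.012, the lowest of 14 settings, up to 0.696) and 0.92 without D391N replicate 3. It had an estimated 0.7 reads in each control and 0.6, 5.7 and 23.8 in the D391N libraries, under 3 reads in 4 of the 6. GTF3A-207 (ENST00000482655), a retained intron transcript, was at 1.201, 0.321 and 1.23 RPKM against 2.34, 2.77 and 2.43 RPKM, each D391N library below each control, with a log2 fold change of -1.53 (adjusted p = 0.217). Without GTF3A-208, GTF3A-205 and GTF3A-203 (ENST00000435781), left out after their values were seen, the means were 27.9 ± 8.53 and 35.01 ± 6.71 RPKM (SD, n = 3 each; exact permutation p = 0.40, two-sided).

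MAF1 (ENSG00000179632, chromosome 8, 144104461 to 144107611) was at 29.9, 23.9 and 17.2 RPKM in the D391N libraries and at 29.2, 22.4 and 20.6 RPKM in the controls. The groups overlapped widely and the means were 23.7 ± 6.33 and 24.1 ± 4.53 RPKM (SD, n = 3 each). The log2 fold change was -0.042 (SE 0.24, limma adjusted p = 0.938), with the other sign under 5 of 18 settings. The protein-coding MAF1-201 (ENST00000322428) made up 81.7% to 92.7% of the gene in each library and had a log2 fold change of 0.073 (adjusted p = 0.915), on an estimated 398 to 803 reads. MAF1 is governed mainly by phosphorylation, which these data do not measure.

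**Figure D3:**
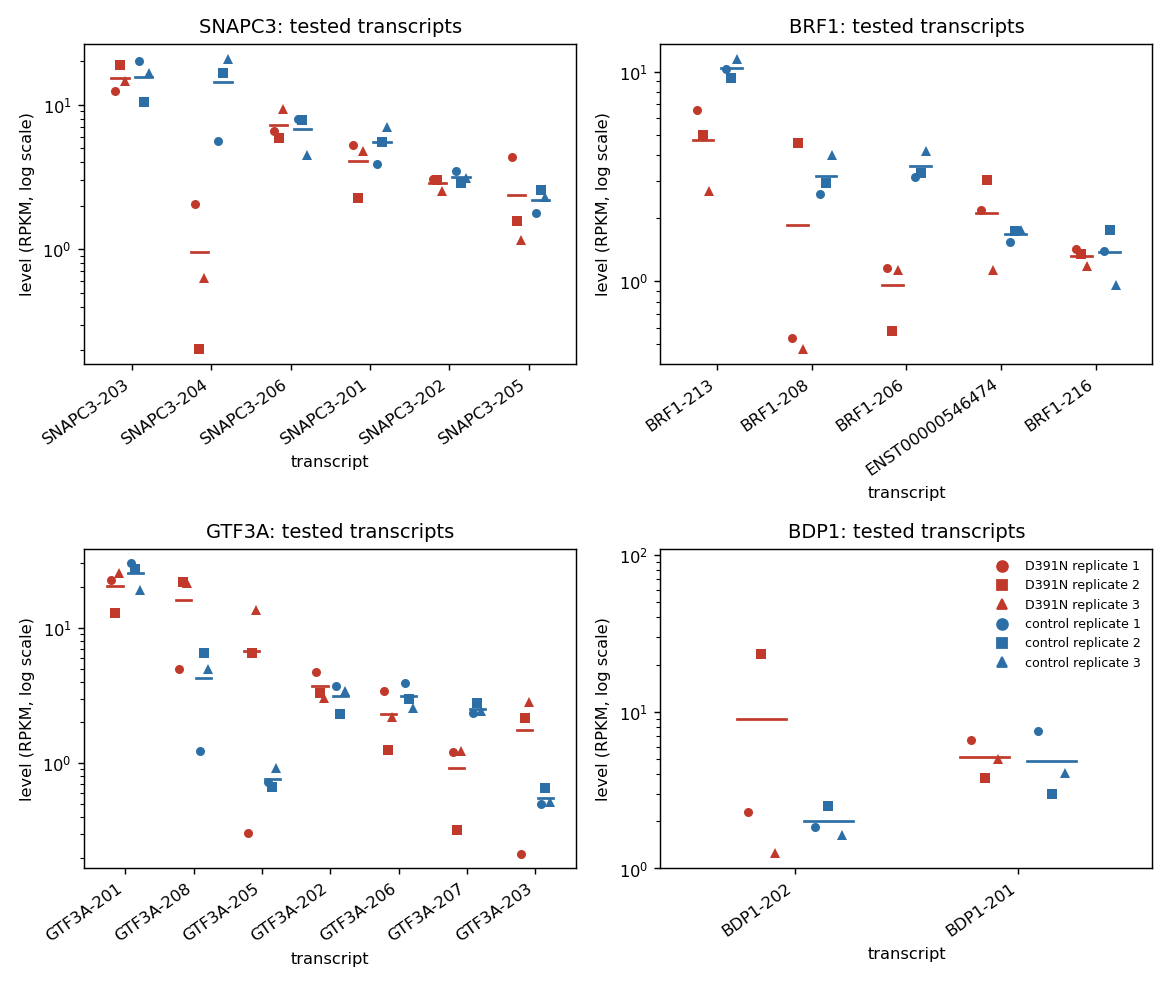
Levels in RPKM (log axis) of the tested transcripts of SNAPC3, BRF1, GTF3A and BDP1 in the 6 libraries, with D391N libraries in red, controls in blue and group means as bars. SNAPC3-204, BRF1-213, BRF1-206 and GTF3A-207 have every D391N library below the controls, while GTF3A-208 and GTF3A-205 are higher in D391N replicates 2 and 3 only, and BDP1-202 in D391N replicate 2 only.

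Of the 70 transcripts of the 10 genes, 31 had a mean of at least 1 RPKM and were tested. None passed an adjusted p under 0.05 in limma, beside 0.0604% of all 54671 tested transcripts, and 5 had an unadjusted p under 0.05, of which 4 were lower, beside 17.6% of all transcripts. The median log2 fold change of the 31 was -0.14, beside -0.072 for all transcripts. Each D391N library was below each control in 5 of them, beside 15.6% of all transcripts, and above in 1, beside 10.1%. Log2 fold changes over 1 in size were found in 5 transcripts with lower and 3 with higher levels, all of BRF1, GTF3A, SNAPC3 or BDP1. Without D391N replicate 1, 5 member transcripts passed, beside 9.08% of the 54901 transcripts then tested, namely SNAPC3-204, BRF1-213 and BRF1-206, which were lower, and GTF3A-205 and GTF3A-203, which were higher.

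In the control means the levels per length fell in the order SNAPC3, GTF3A, BRF1, MAF1, SNAPC5, SNAPC1, SNAPC4, BDP1, BRF2 and SNAPC2. The ranges of the controls overlapped between SNAPC3 and GTF3A, between BRF1 and MAF1 and between SNAPC4 and BDP1, so that these neighbours were not separated. In each of these pairs the order held in 2 of the 6 libraries, whereas the others held in 5 or 6. The subunits of SNAPc thus spanned 1.81 to 47.9 RPKM in the controls, and sums that include short isoforms count these as heavily as full-length mRNA. The genes closest to BRF1 in their pattern over the 6 libraries, by the root-mean-square difference of centred log2 levels among 20713 other genes, were ARHGEF37 (0.061), MELTF (0.067) and RINL (0.073). All had every D391N library below the controls, as BRF1 did. A choice by likeness over the same libraries favours this, and 20.7% of all genes had the same pattern.

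SNAPC1 and SNAPC3 were the SNAPc genes with an unadjusted p under 0.05 in limma. Both sums were lower in cells with the inactive enzyme, but neither passed the threshold. The difference in the SNAPC3 sum lay in a short isoform with few estimated reads in those cells. Without that isoform the groups overlapped. The promoters of SNAPC1 and SNAPC3 are shown as the last 100 bases before the start site in RefSeq (GRCh38.p14). They lie at chr14:61762320-61762419 and chr9:15422776-15422875, both on the + strand. The capitals mark the GC box GGGCGG, which is in the first and not in this stretch of the second.
SNAPC1: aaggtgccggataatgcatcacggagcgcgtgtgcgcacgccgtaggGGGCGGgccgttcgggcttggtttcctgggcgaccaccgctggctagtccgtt
SNAPC3: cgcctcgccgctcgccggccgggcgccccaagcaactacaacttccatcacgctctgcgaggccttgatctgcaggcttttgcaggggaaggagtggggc

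Promoter sequences matched 7 of the 10 genes, with 12 entries. On either strand of the 250 bases before the start, GGGCGG was in 7 of the 12 entries (BRF1, GTF3A, SNAPC1, SNAPC2 and SNAPC3), beside 42.6% of all 35116 promoters. The TATA box TATAAA (10.7% of all) and the E-box CACGTG (6.34%) were in none. CCAAT was in 2 entries (32% of all), CGGAAG in 3 (16.5%), and GCATGCGC in the GTF3A promoter alone (2.63%). Entries of 1 gene overlap in sequence, and these counts describe letters in a window and not binding.

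Other parts of the same machinery were compared from lists drawn up with earlier results of these data known, and no gene of the protein lists passed the threshold in limma. Their counts at an unadjusted p under 0.05 stand beside 4712 of all 20714 genes, of which 3312 (16% of all genes) were lower. TBP, the TATA-binding protein that SNAPc recruits, and the snRNA promoter activators POU2F1, ZNF143 and ZNF76 had a median log2 fold change of -0.18, and 1 of 4 had an unadjusted p under 0.05. This was ZNF76, which was at -0.48 (adjusted p = 0.152), and ZNF143 was at 18.5, 24.6 and 21.9 RPKM against 17.4, 17.7 and 15.4 RPKM, each D391N library above each control. The 6 subunits of TFIIIC, which binds the internal promoters of tRNA genes and positions BRF1, had a median of -0.050, with 1 lower and 1 higher at an unadjusted p under 0.05. Among them GTF3C6 was at 98.2, 117 and 123 RPKM in the D391N libraries, against 61.8, 68.9 and 51.0 RPKM in the controls, a log2 fold change of 0.90 (SE 0.18, adjusted p = 0.0873), and it was also the subunit with the highest mean level.

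The 18 subunits of Pol III itself had a median log2 fold change of -0.13. At an unadjusted p under 0.05 in limma, 4 were lower, beside 16% of all genes, and none were higher. POLR2L, a small subunit held in common by the RNA polymerases, was at 16.7, 10.7 and 11.2 RPKM against 28.8, 23.5 and 17.4 RPKM, a log2 fold change of -0.84 (adjusted p = 0.140 in limma), with each D391N library below each control. POLR3D, the subunit with the highest mean level, was at 0.095 (adjusted p = 0.833). The 4 genes of the little elongation complex, which acts at snRNA genes, had a median of 0.11 and none under an unadjusted p of 0.05, with ICE1 at 0.42 (adjusted p = 0.284). The 7 general factors of Pol II that also serve snRNA promoters had a median of 0.25, with 1 under an unadjusted p of 0.05. This was GTF2B, at 64.9, 66.2 and 61.4 RPKM against 41.1, 43.0 and 40.9 RPKM with a log2 fold change of 0.62 (SE 0.12, adjusted p = 0.0881). The most abundant of these, GTF2F1, was at -0.11 (adjusted p = 0.672). Among 8 genes of kinases and phosphatases upstream of MAF1, with their partners, the median was -0.053, with 1 lower and 1 higher at an unadjusted p under 0.05. MLST8, a partner of the kinase mTOR, was at 21.1, 14.2 and 17.6 RPKM against 32.9, 33.4 and 31.8 RPKM, a log2 fold change of -0.91 (SE 0.18, adjusted p = 0.0862), and PPP2CA, the most abundant, at 0.39 (adjusted p = 0.303). Without D391N replicate 1, in a fit in which 2267 of 20734 genes passed, GTF3C6, GTF2B, MLST8 and POLR2L passed as well. GTF3C6 and MLST8 also passed in the sums over protein-coding transcripts, where 593 of 11351 genes (5.22%) did.

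The RNAs made from SNAPc-dependent promoters stood lower in the D391N libraries than the factors did. Of those made by Pol III, 11 were tested, all had a log2 fold change below 0, beside 57.3% of all genes, and the median was -2.30. RNU6-7 and RNU6-8, copies of the U6 snRNA gene, were the genes past the threshold, but each had an estimated 0.6 to 1.2 reads per library. RNU6-7 was at 12.6, 6.10 and 11.6 RPKM against 168, 119 and 69.2 RPKM (log2 fold change -3.52, SE 0.40, adjusted p = 0.047), and RNU6-8 at 12.4, 5.85 and 11.1 RPKM against 123, 122 and 80.0 RPKM (log2 fold change -3.50, SE 0.32, adjusted p = 0.028). These copies are close to identical in sequence, so that the division of reads among them is uncertain, and 5 of the 11 RNAs, all U6 copies, were under 3 estimated reads in every library. The call of RNU6-7 held in 2 of 16 other settings and that of RNU6-8 in 11, with log2 fold changes from -3.87 to -3.17 in all of them. With the replicate block neither passed (adjusted p = 0.11 for each). Without D391N replicate 3 or any one control, neither passed (adjusted p from 0.101 to 0.236), and without D391N replicate 2, where short RNA was scarcest, RNU6-8 passed (adjusted p = 0.045) and RNU6-7 did not (0.0799). RN7SK, the most abundant, was at -2.44 (SE 0.61, adjusted p = 0.113). Of the snRNAs made by Pol II, 13 were tested and none passed, 12 were below 0, and the median was -2.53. An unadjusted p under 0.05 in limma was found in 7, all lower, beside 16% of all genes. Among these 7 were RNU1-1, RNU1-2, RNU1-3 and RNU1-4, copies of the gene of 1 snRNA, U1, that were counted as separate genes. In 3 of the 13, all U1 copies, the estimated reads were under 3 in every library. RNU1-3 was at -3.57 (adjusted p = 0.129 in limma), and RNU2-2P, the most abundant, at -1.79 (adjusted p = 0.186). The posterior variance of RNU1-3 gave 0.5 to 2.0 estimated reads per library, at levels of 40.3 to 3006 RPKM. Such an estimate also falls where the division of reads was uncertain, and is then not a count of the reads present. RN7SK, RNU1-3 and RNU2-2P passed without D391N replicate 1, where 2267 of 20734 genes passed.

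The share of short RNA differed between the libraries in the same direction. The share of transcripts under 200 bases was taken from RPKM times length, summed over transcripts with a known length, and not from the posterior variance. Those of the RNAs above that are under 200 bases are part of this share, so its direction is not independent of theirs. It was 2.43%, 0.342% and 1.52% in the D391N libraries, against 3.18%, 3.08% and 2.89% in the controls. All D391N libraries had less, replicate 2 the least, and the part of this in the values of the snRNAs and Pol III RNAs was not tested. The tested transcripts of the 10 factor genes with a known length have at least 403 bases. The limit of 200 bases is a choice, and the part of transcript length in the member values was not tested. Among the shortest, SNAPC3-204 (403 bases), BRF1-213 (521 bases) and BRF1-206 (554 bases) had log2 fold changes below 0, and GTF3A-205 (461 bases) above 0. SNAPC3-204 and BRF1-206 were lowest in D391N replicate 2, BRF1-213 in D391N replicate 3 and GTF3A-205 in D391N replicate 1. In bulk RNA, fewer cells with a transcript and less of it per cell cannot be told apart.

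**Figure D4:**
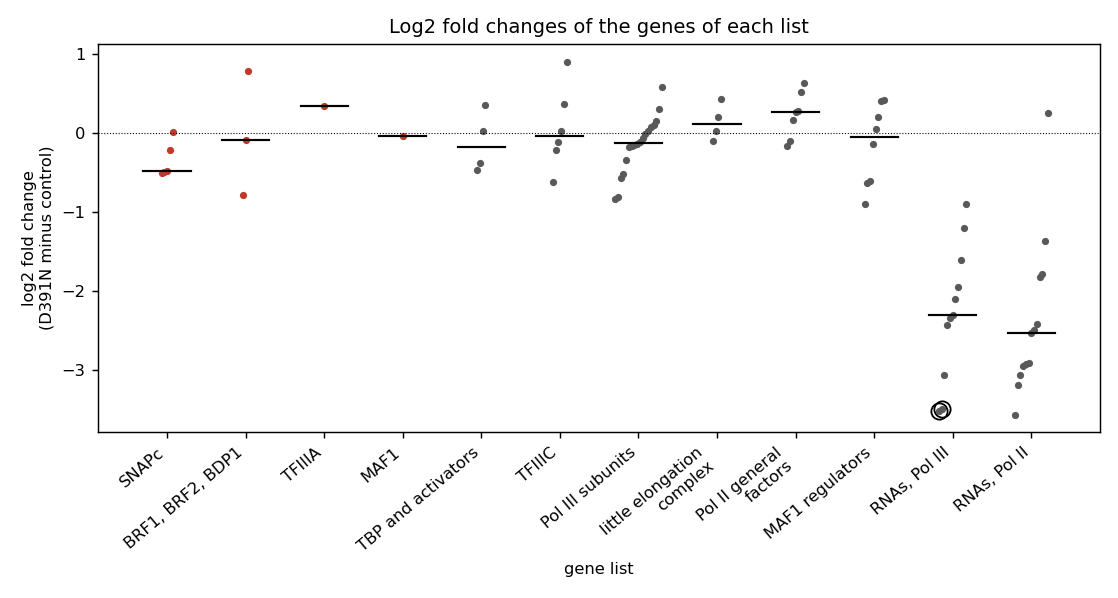
Log2 fold changes (D391N minus control, limma on log2(RPKM + 0.1)) of every tested gene in each list, with the 10 promoter factor genes in red, the other lists in grey and the median of each list as a bar. Circles mark RNU6-7 and RNU6-8, the genes past the threshold; the protein lists lie between -0.91 and 0.90, and the snRNAs and Pol III RNAs mostly below -1.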

How the data were processed

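rRNA-depleted total RNA of 3 D391N and 3 control libraries was sequenced in single-end reads of 50 bases. Cutadapt trimming, Segemehl alignment against the Ensembl GRCh38 transcriptome, coding and non-coding, and BitSeq estimation were run by the authors (versions not given in the sources used here). For each transcript and library, the deposited table holds BitSeq's posterior mean of RPKM as a natural log and the variance of that posterior. Here natural log values were exponentiated and summed over the transcripts of each gene.

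Genes and transcripts averaging at least 1 RPKM were compared on log2(RPKM + 0.1) with limma 3.58.1 in R 4.3.3 (a linear model with moderated variances and a mean-variance trend), with Benjamini-Hochberg adjustment over all of them. Single values used a two-sided exact permutation test. The procedure was tested on simulated data. Tables were made with pandas 2.3.3 and numpy 2.4.6 under Python 3.11.15, and figures with matplotlib 3.10.9.

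Depth was estimated from the posterior variance and from the level of 63905 transcripts without reads, and 53.0% of the transcripts had under 3 estimated reads in every library. Such estimates cover counting and assignment error only. Symbols matched 88.2% of the gene identifiers, and 90.2% of the transcripts had a length and biotype. Gene positions are from RefSeq (GRCh38.p14).

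The members and all gene lists were chosen with earlier results of these data known. Named were all members, DIS3L2, in each other list the gene with the largest difference, that with the highest mean and any past the threshold, and among member transcripts the most abundant of each gene and those with a log2 fold change over 1 in size. Features outside this rule, such as SNAPC5-202, were chosen after their values were seen. Other pseudocounts, filters, scalings, transcript sums, limma without trend, a replicate block and each library left out were tried. The sum over transcripts with at least 3 estimated reads was added after seeing the data.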

Additional observations from a re-analysis of the deposited data

How the results depend on the processing

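The count of genes past the threshold, 29, depended on the setting: 61 with a pseudocount of 1, 16 with 0.01, 6 at a mean of at least 5 RPKM, 18 with no filter on low values, 14 after median centring, 17 after quantile normalization, 2 with the replicate block, 19 in sums over tested transcripts, 593 in sums over protein-coding transcripts, and 2 to 2267 with single libraries left out, the highest without D391N replicate 1. Of transcripts, 33 passed, and 142 with a pseudocount of 1, 17 at a mean of at least 5 RPKM, 18 with no filter, 52 without the trend, 7 with the replicate block, and 2 to 4984 with single libraries left out. The block changed no call of a member and ended those of RNU6-7 and RNU6-8. Same-numbered libraries had correlations of 0.070, 0.22 and -0.11 in their gene-level deviations. Of the 6 libraries 2, those of replicate 2, correlated best with their own number. These correlations showed no clear pairing by number, but they cannot exclude it, and whether same-numbered libraries were handled together was not tested.

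No member gene passed except 1, BRF1, in the sum over protein-coding transcripts, and 0 to 5 member transcripts passed with single libraries left out. The median of the member genes, -0.16, moved to 0.063 after median centring and 0.0051 after quantile normalization, and lay between -0.27 and -0.087 with single libraries left out. Signs changed for SNAPC4 (0.0019, median centring), BRF2 (0.12 and 0.15 by median centring and quantile normalization, 0.031 without D391N replicate 3, 0.048 without control replicate 2, down to -0.25 without control replicate 3), MAF1 (0.18 and 0.031 by the same scalings, 0.17 without D391N replicate 3, 0.10 without control replicate 1, 0.073 in tested transcripts, down to -0.23 without D391N replicate 1), SNAPC5 (-0.064 without D391N replicate 2, -0.039 without control replicate 3), GTF3A (-0.36, protein-coding transcripts), POLR3D (-0.12 without D391N replicate 2, up to 0.26 without D391N replicate 1) and GTF2F1 (0.11 by median centring, 0.075 in protein-coding transcripts). Among transcripts they changed for ENST00000421710 (0.068 by median centring, and 0.13, 0.023, 0.20 and 0.060 without D391N replicates 1 and 3 and control replicates 1 and 3), ENST00000322428 (-0.030 by quantile normalization, -0.092 without D391N replicate 1, -0.054 without control replicate 3, up to 0.27 without D391N replicate 3) and ENST00000508157 (-0.20 without D391N replicate 2, up to 1.85 without D391N replicate 3). RNU6-7 lost its call in 14 of 16 settings and RNU6-8 in 5. The cause was not tested. Isoform values under about 3 reads, and all values of SNAPC2 and BDP1, are limited by depth or by the division of reads.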
